A study of Mus musculus with 23 samples.

Results

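The lungs described here are those of the wild-type (WT) mice in a study of organic dust inhalation, 7 exposed to dust and 5 to saline, out of 23 lungs of WT and Fat-1 mice in all. They were chosen by the extract code of each lung, which gives the extraction day, genotype, sex, exposure and replicate. WT dust mice, 4 female and 3 male, had been given 14 instillations of organic dust extract, and WT saline mice, 2 female and 3 male, the same number of instillations of phosphate-buffered saline. The Fat-1 mice, 6 given dust and 5 saline, carry a desaturase that makes omega-3 from omega-6 fatty acids, and they serve here to test whether the WT response differed from theirs and as part of the estimate of spread. For 3 of the 11 Fat-1 lungs, 1 given dust and 2 saline by their codes, both title and characteristics say WT, and which label is right is not known. Every mouse was lavaged before removal of its left lobe, so cells washed out of the airways were not measured. The sources used here give neither strain nor age, nor the interval since the last instillation. For 1 of the WT saline lungs, male lung 2 of day 2, the sample title says female dust, while the code and the characteristics say male saline. Values are NanoString counts, in which colour-coded probes are counted on single RNA molecules without amplification, over a mouse myeloid panel of 754 genes, of which 711 were tested. A change given for a gene is its log2 fold change of dust over saline, and a value is its normalized count, that is, counts after the study's scaling.

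Organic dust from farms and animal barns carries bacterial and fungal products that are sensed by Toll-like and related receptors on airway epithelium and resident macrophages. These receptors act through NF-kappa-B, and the cells then release interleukin 1, tumour necrosis factor and chemokines of the CXC and CC families. CXC chemokines that bind CXCR2 draw neutrophils, CC chemokines draw monocytes, and repeated exposure is known to leave macrophages and lymphoid aggregates around the airways. The capillary endothelium through which these cells pass is kept quiet by angiopoietin signalling through the receptor Tek.

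Each lung's counts had been multiplied by a factor, 0.682 to 3.24 in WT lungs, and any gene under 20 before or after that scaling is listed at a floor of 20. The recovered counts ran from 157154 to 812429 per WT lung, and 66 to 232 genes were at the floor. Depth moved with the groups on day 1, when the 4 dust lungs had 554066 to 812429 counts and the saline lungs 157154 and 201037. A gene listed at 20 in those saline lungs could have stood as high as 64.8 or 45.4, so a gene at the floor in a saline lung, or 1 whose change moves by over 1.5 times, is also given with a common floor of 84.3 in every lung; the part of depth in the results was not tested otherwise. The extractions fell on a pair of days, day 1 with 4 dust and 2 saline WT lungs and day 2 with 3 and 3. WT female saline lung 1 of day 2 had a positive-control sum of 64880, and WT male saline lung 1 of day 2 carried a saturation message. Fat-1 male dust lung 1 of day 2, which enters the estimate of spread, carried that message as well. Results are also given without these doubted lungs where that matters. Lung tissue was present in every WT lung by its markers, with endothelial Cdh5, Tek and Thbd, epithelial Cdh1 and Lamp3 and fibroblast Col3a1 and Pdgfra all above the floor. Of the markers of other cells, Cxcr2 of neutrophils was at the floor in 3 WT lungs and Ms4a2 of mast cells in all 12. In bulk tissue a change in the number of cells of a type and a change of RNA per cell cannot be told apart.

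Dust and saline lungs of WT mice differed in 251 of 711 tested genes (35.3%), of which 218 were higher in dust (30.7%) and 33 lower (4.64%). The changes upward were also the larger ones, since 145 genes rose at least 2-fold (20.4%) and 5 fell at least 2-fold (0.703%). At an unadjusted p under 0.05 there were 317 genes (44.6%). All 7 dust lungs lay above the highest saline lung for 48 genes (6.75%) and below the lowest for 10 genes (1.41%), as listed. Allowing for what the floor can hide, a count added after the data were seen, the numbers were 43 (6.05%) and 10. Tests are limma's on log2(value + 1), two-sided, with sexes weighted alike except in the comparison of days, and with Benjamini-Hochberg adjustment over the 711 genes, and a gene is said to rise or fall where its adjusted p was under 0.05. The Fat-1 lungs entered the estimate of spread, and a fit to the WT lungs alone gave 217 higher and 37 lower genes, of which 197 and 28 were among those above. With groups from the characteristics there were 244 and 39, sharing 209 and 31. The split between rising and falling genes depended on the scale, because the median log2 fold change of all tested genes was 0.28 as deposited, -0.25 with each lung centred on its median and 0.10 with lungs scaled on the housekeeping genes. Centring gave 120 higher and 206 lower genes (36.8% of calls higher, against 86.9% as deposited), and housekeeping scaling gave 163 and 61 (72.8%). The 120 genes still higher after centring were all among the 218, and all 33 falling genes stayed lower on both scales. Either scaling moves the changes of all genes down by about the same amount. These overlaps were therefore largely set by the scaling and are no check on the falls.

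Of the 20 housekeeping genes 3 rose, namely Gusb by 0.88 (SE 0.19, adjusted p = 0.00278), Tubb5 by 0.58 (SE 0.19, adjusted p = 0.0285) and Nubp1 by 0.47 (SE 0.17, adjusted p = 0.0397), and 0 fell. The count of genes rested in part on single lungs. Without WT female saline lung 1 of day 1, the shallowest WT library, 117 genes were called, 106 higher and 11 lower, of which 104 and 7 were among the genes called with it. Leaving out each other WT lung in turn, or Fat-1 female dust lung 2 of day 1, gave counts within 1.5 times of 251. Nubp1 (9 lungs, adjusted p up to 0.108) and Tubb5 (7 lungs, adjusted p up to 0.0842) lost their calls when any 1 of that many of the 12 WT lungs was left out.

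**Figure D1:**
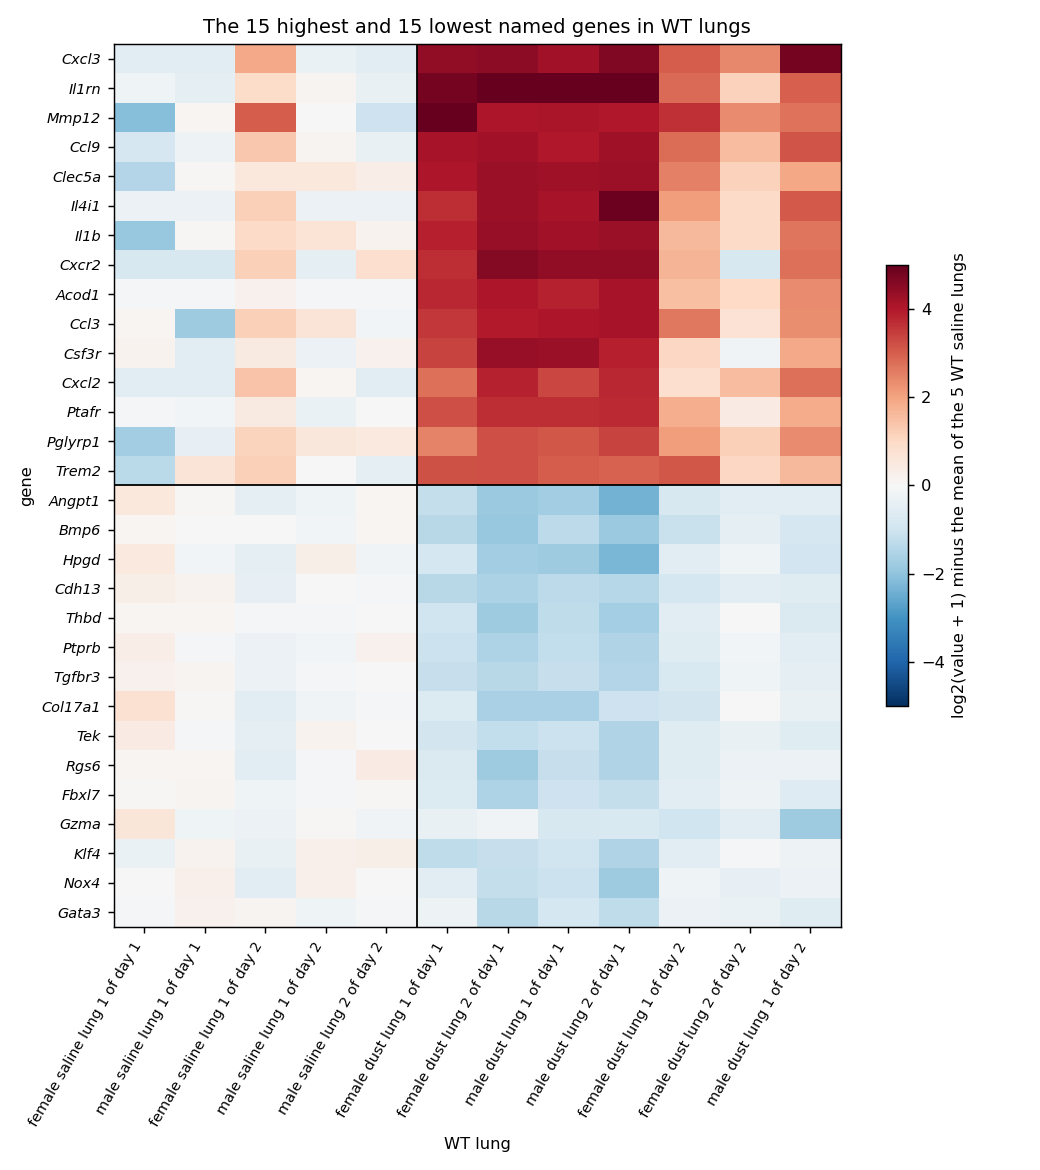
Heat map of the 15 highest and 15 lowest named genes (rows) in the 5 saline and 7 dust WT lungs (columns), coloured by log2(value + 1) minus the mean of the 5 saline lungs, red above and blue below. The 4 dust lungs of day 1 hold the deepest colours for most genes, exceptions being Cxcl3 and Gzma in WT male dust lung 1 of day 2, and WT female dust lung 2 of day 2 is the palest dust lung for most.

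Chemokines and cytokines that draw neutrophils had the highest median change, as deposited, of the lists with at least 5 tested members. Of the 11 tested neutrophil attractants and their inducers, 8 rose (72.7%) and 0 fell (5 rising of 10 with a common floor). Their median change was 2.18 (log2), from 3.35 on day 1 and 1.00 on day 2. With a common floor their median was 1.10, and 5 lists stood above it, complement genes the highest at 1.74. Cxcl3, a CXC chemokine that acts on CXCR2, gave the highest fold change of all called genes as deposited. It was at the floor in 3 saline lungs and at 22.5 and 110.1 normalized counts in the other 2, against 157 at the lowest, 651 at the median and 823 at the highest of the 7 dust lungs. All 7 dust lungs lay above every saline lung, although WT female saline lung 1 of day 2 stood well above the other saline lungs. The log2 fold change of Cxcl3 was 3.95 (SE 0.61, adjusted p = 0.00057), and 2.46 with a common floor, where Il1rn, described further on, was higher at 3.88. Its neighbour Cxcl2, another CXCR2 ligand, was at the floor in 3 saline lungs and at 31.4 and 80.8 normalized counts in the other 2, while the 7 dust lungs ran from 52.6 to 436 with a median of 202. The groups overlapped, with WT female dust lung 1 of day 2 at or below the highest saline lung. The log2 fold change of Cxcl2 was 2.69 (SE 0.64, adjusted p = 0.00466), and 1.35 with a common floor. Il1a, an alarm cytokine released by damaged cells, changed by 2.32 (SE 0.56, adjusted p = 0.00494), and 1.21 with a common floor. Cxcl2 and Il1a no longer passed without WT female saline lung 1 of day 1, at adjusted p from 0.0514 to 0.0545.

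Cxcl3 and Cxcl2 lie on chromosome 5, and the 250 bases before their starts are shown because they hold the letters GGG, then any 2 bases, then TTTCC, a spelling within the sites that NF-kappa-B dimers are known to bind, as do those of Ccl9 and Pglyrp1, described further on. The sequences are RefSeq's for GRCm38.p6, written 5′ to 3′ on the strand of the gene, with the match in capitals and the last base next to the start. Cxcl3 is at chr5:90785851-90786100 on the plus strand, Cxcl2 at chr5:90903649-90903898 on the plus strand, Ccl9 at chr11:83578637-83578886 on the minus strand and Pglyrp1 at chr7:18884440-18884689 on the plus strand.
Cxcl3: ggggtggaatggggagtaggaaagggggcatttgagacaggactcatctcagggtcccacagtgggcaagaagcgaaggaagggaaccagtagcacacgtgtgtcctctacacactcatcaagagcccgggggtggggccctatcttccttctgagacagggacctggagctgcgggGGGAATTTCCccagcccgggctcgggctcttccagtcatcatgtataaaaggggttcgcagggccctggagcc
Cxcl2: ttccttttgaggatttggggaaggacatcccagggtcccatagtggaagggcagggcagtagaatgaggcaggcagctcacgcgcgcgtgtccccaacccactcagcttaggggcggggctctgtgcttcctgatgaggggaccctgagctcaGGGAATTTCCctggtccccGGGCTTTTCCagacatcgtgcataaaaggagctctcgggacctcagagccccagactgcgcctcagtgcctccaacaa
Ccl9: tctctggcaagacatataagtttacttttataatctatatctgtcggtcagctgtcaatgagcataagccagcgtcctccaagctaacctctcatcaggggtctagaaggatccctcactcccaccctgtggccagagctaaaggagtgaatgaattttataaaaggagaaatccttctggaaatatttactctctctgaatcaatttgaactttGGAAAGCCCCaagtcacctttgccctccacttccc
Pglyrp1: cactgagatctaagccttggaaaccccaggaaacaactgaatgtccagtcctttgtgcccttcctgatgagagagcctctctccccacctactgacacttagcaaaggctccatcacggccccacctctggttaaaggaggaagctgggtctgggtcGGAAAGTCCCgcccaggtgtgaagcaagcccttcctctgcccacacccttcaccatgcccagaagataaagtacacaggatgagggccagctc
The match begins 73 bases before the start of Cxcl3, and Cxcl2 has matches at 97 and 78 bases. In Ccl9 and Pglyrp1 the match is on the opposite strand and spans from 35 and 93 bases before the start. With both strands searched over windows of 300 bases, 250 before and 50 after the start, 5 of the 15 highest genes held the motif in at least 1 of their promoters, the fifth being Il1rn, and 1 of the 10 lowest genes with an entry did, Col17a1. Counted the same way, 1.89% of the 27025 genes with a RefSeq promoter at hand held it, and 5.71% of the 543 tested genes with one. A match is only a string of letters, and the genes were picked for their fold change, so the shares are given without a test.

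Genes known from neutrophils rose, and the day difference passed for 7 of the 17, all larger on day 1, against 16.2% of all tested genes. Among 17 tested neutrophil genes 12 rose (70.6%) and 0 fell, and the median change of 1.66 (log2) divided into 2.39 on day 1 and 0.79 on day 2. Cxcr2, the receptor for these chemokines, was at the floor in 2 saline lungs and at 25.9, 64.5 and 82.6 normalized counts in the other 3 and, in dust lungs, had a lowest value of the floor, a median of 473 and a highest of 886. The ranges met, since WT female dust lung 2 of day 2 did not exceed the highest saline lung. The log2 fold change of Cxcr2 was 3.06 (SE 0.89, adjusted p = 0.0138), and 2.12 with a common floor. Csf3r, through which granulocyte colony-stimulating factor acts, stood at 65.8, 78.5, 107, 110.4 and 129.6 normalized counts in the 5 saline lungs; the dust lungs had a median of 1002, between 84.0 and 1969. There was overlap, through WT female dust lung 2 of day 2, and the dust lungs of day 1 lay between 1002 and 1969. Its log2 fold change was 2.71 (SE 0.72, adjusted p = 0.00935). S100a8, a subunit of calprotectin, abundant in neutrophils, stood at 536, 632, 685, 723 and 849 normalized counts in the 5 saline lungs, against 501 at the lowest, 5063 at the median and 15217 at the highest of the 7 dust lungs. Overlap with the saline range came from WT female dust lung 2 of day 2, and all 4 dust lungs of day 1 were above the 3 of day 2. S100a8 changed by 2.47 (SE 0.83, adjusted p = 0.0303), and its partner S100a9 by 2.37 (SE 0.74, adjusted p = 0.0208). The formyl peptide receptors sense bacterial peptides. Fpr2 changed by 2.37 (SE 0.38, adjusted p = 0.000639), and Fpr1 by 1.11 (SE 0.20, adjusted p = 0.000972), with 1.19 on day 1 and 0.98 on day 2. Pglyrp1, a granule protein that binds bacterial cell wall, was at the floor in 1 saline lung and at 52.2, 98.5, 103 and 154 normalized counts in the other 4, while the 7 dust lungs ran from 163 to 728 with a median of 399. No dust lung reached down to the saline range. The fitted log2 fold change was 2.65 (SE 0.46, adjusted p = 0.000876), and 2.03 with a common floor. The summed level of the 17 tested neutrophil genes was 3357 to 4704 in saline lungs and 3844 to 49790.1 in dust lungs. Cxcr2 and Csf3r no longer passed without WT female saline lung 1 of day 1, at adjusted p from 0.0503 to 0.0935. S100a8 (8 lungs, adjusted p up to 0.0896) and S100a9 (2 lungs, adjusted p up to 0.0725) lost their calls when any 1 of that many of the 12 WT lungs was left out.

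The interleukin 1 system rose on both the agonist and the inhibitor side. The 13 tested members of the interleukin 1 family and inflammasome showed a median change of 0.66 (log2), 0.96 on day 1 and 0.77 on day 2, and 8 rose (61.5%) and 0 fell (5 and 0 at a median of 0.13 after centring each lung, 5 rising of 11 with a common floor). Il1rn, the antagonist that blocks the interleukin 1 receptor, stood at 99.9, 109, 119.9, 153 and 266 normalized counts in the 5 saline lungs and, in dust lungs, had a lowest value of 316, a median of 3888 and a highest of 5158. Every dust lung exceeded the highest saline lung, and the 4 dust lungs of day 1 ran from 3888 to 5158. In log2 terms it changed by 3.88 (SE 0.66, adjusted p = 0.000876). Il1b, the agonist, was at the floor in 1 saline lung and at 79.5, 86.6, 126 and 152 normalized counts in the other 4; the dust lungs had a median of 1151, between 152 and 1575. The groups overlapped, with WT female dust lung 2 of day 2 at or below the highest saline lung. The log2 fold change of Il1b was 3.29 (SE 0.79, adjusted p = 0.00466), and 2.77 with a common floor. Il1r2, a decoy receptor without signal, changed by 1.84 (SE 0.52, adjusted p = 0.0121), and 0.42 and not past the threshold with a common floor. The other named myeloid activation genes among the 15 highest were enzymes and receptors. Clec5a, a lectin receptor of myeloid cells, was at the floor in 1 saline lung and at 59.0, 71.3, 81.7 and 82.5 normalized counts in the other 4, against 126 at the lowest, 958 at the median and 1143 at the highest of the 7 dust lungs. The dust and saline ranges did not meet. Clec5a changed by 3.32 (SE 0.66, adjusted p = 0.00168), and 2.68 with a common floor. Acod1, which makes itaconate in activated macrophages, was at the floor in 4 saline lungs and at 24.0 normalized counts in the remaining saline lung, while the 7 dust lungs ran from 42.0 to 382 with a median of 299. As listed all 7 dust lungs were above the saline lungs, but the floor of WT female saline lung 1 of day 1 can hide values of up to 64.8, and 2.0 dust lungs lay under that. The log2 ratio of dust to saline was 3.00 (SE 0.62, adjusted p = 0.0019), and 1.22 with a common floor. Il4i1, a secreted amino acid oxidase, changed by 3.32 (SE 0.66, adjusted p = 0.00168), and 1.77 with a common floor, and Ptafr, the receptor for platelet-activating factor, by 2.66 (SE 0.52, adjusted p = 0.00165). Il1b and Il1r2 no longer passed without WT female saline lung 1 of day 1, at adjusted p from 0.0539 to 0.085.

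**Figure D2:**
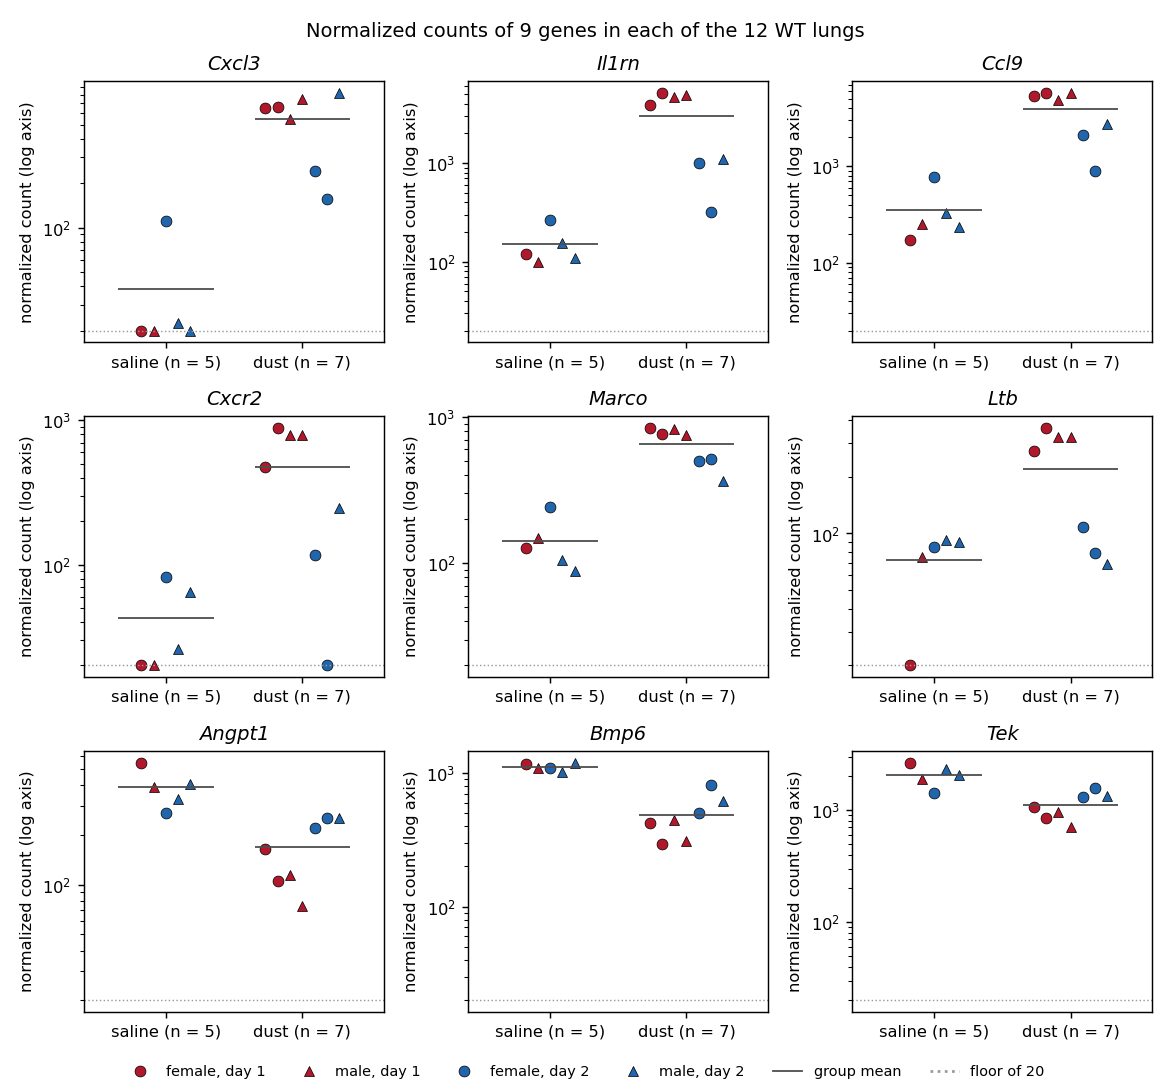
Normalized counts on log axes for 9 genes in the 5 saline and 7 dust WT lungs, with circles for females, triangles for males, red for day 1, blue for day 2, a line at each group's mean and a dotted line at the floor of 20. Dust lungs of Cxcl3, Il1rn, Ccl9 and Marco lie above every saline lung and those of Angpt1 and Bmp6 below, while the red dust lungs stand apart from the blue ones for every gene shown except Cxcl3.

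Several CC chemokines rose, as did some of their receptors. Of the 17 tested CC chemokines, 9 rose (52.9%) and 0 fell (8 and 2 at a median of 0.75 after centring each lung). The median change over the list was 1.29 (log2), from 2.15 on day 1 and 0.52 on day 2. Ccl9, a chemokine of rodents for myeloid cells, stood at 172, 238, 254, 332 and 773 normalized counts in the 5 saline lungs and, in dust lungs, had a lowest value of 889.8, a median of 4889.9 and a highest of 5744. The saline range ended below the lowest dust lung. Its log2 fold change was 3.44 (SE 0.46, adjusted p = 0.000254). Ccl3, a ligand of Ccr1, was at the floor in 1 saline lung and at 62.8, 74.5, 109.8 and 161 normalized counts in the other 4; the dust lungs had a median of 828, between 117 and 1249.7. The ranges met, since WT female dust lung 2 of day 2 did not exceed the highest saline lung. The log2 fold change of Ccl3 was 3.00 (SE 0.65, adjusted p = 0.00253), and 2.55 with a common floor. Ccl6, close kin of Ccl9, changed by 1.02 (SE 0.19, adjusted p = 0.00125), with 1.18 on day 1 and 1.06 on day 2. Ccl20, the ligand of Ccr6, was low in every lung and was at the floor in 3 saline lungs and at 22.5 and 27.5 normalized counts in the other 2, against 34.0 at the lowest, 40.2 at the median and 114 at the highest of the 7 dust lungs. As listed all 7 dust lungs were above the saline lungs, but the floor of WT female saline lung 1 of day 1 can hide values of up to 64.8, and 5.0 dust lungs lay under that. Ccl20 changed by 1.30 (SE 0.28, adjusted p = 0.00239), and 0.10 and not past the threshold with a common floor.

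Among 10 tested CC chemokine receptors 4 rose (40%) and 0 fell (4 and 1 at a median of -0.32 after centring each lung), and the median change of 0.21 (log2) divided into 0.47 on day 1 and 0.04 on day 2. That share, 40%, is near the 30.7% of all tested genes that rose. Ccr1, found on monocytes and neutrophils, changed by 2.48 (SE 0.49, adjusted p = 0.00165). Ccr2, the receptor by which monocytes leave the bone marrow, stood at 178, 238, 245, 272 and 297 normalized counts in the 5 saline lungs, while the 7 dust lungs ran from 325 to 829 with a median of 686. Dust and saline lungs were fully apart. The fitted log2 fold change was 1.28 (SE 0.28, adjusted p = 0.00255). Ccr6, found on B cells and some T cells, changed by 1.54 (SE 0.44, adjusted p = 0.0124), and 0.55 and not past the threshold with a common floor. Ccr6 no longer passed without WT female saline lung 1 of day 1, at an adjusted p of 0.1.

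Several receptors for microbial products rose. The 18 tested pattern receptors and adaptors showed a median change of 0.96 (log2), 1.36 on day 1 and 0.40 on day 2, and 10 rose (55.6%) and 0 fell (7 and 2 at a median of 0.43 after centring each lung). All 7 dust lungs lay above the saline lungs for 7 of these 18 whatever the floor hides, against 6.05% of all tested genes. Cd14, the co-receptor for endotoxin, stood at 178, 186, 222, 332 and 436 normalized counts in the 5 saline lungs and, in dust lungs, had a lowest value of 506, a median of 1547 and a highest of 2718. All 7 dust lungs lay above every saline lung. In log2 terms it changed by 2.51 (SE 0.50, adjusted p = 0.00168). Tlr2, the receptor for bacterial lipoproteins, stood at 100.2, 119.9, 158, 161 and 179 normalized counts in the 5 saline lungs; the dust lungs had a median of 602, between 199 and 818. No dust lung reached down to the saline range. Tlr2 changed by 1.88 (SE 0.29, adjusted p = 0.00057). Tlr13, which senses bacterial ribosomal RNA, changed by 2.03 (SE 0.39, adjusted p = 0.00153).

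Inhibitors of NF-kappa-B were among the rising genes. Of the 8 tested NF-kappa-B genes and brakes, 4 rose (50%) and 0 fell (2 and 0 at a median of 0.08 after centring each lung). Their median change was 0.61 (log2), from 1.15 on day 1 and 0.21 on day 2. Nfkbie, an inhibitor that holds NF-kappa-B in the cytosol, was at the floor in 2 saline lungs and at 76.4, 92.1 and 95.0 normalized counts in the other 3, against 113 at the lowest, 269 at the median and 345 at the highest of the 7 dust lungs. Every dust lung exceeded the highest saline lung. Nfkbie changed by 2.22 (SE 0.46, adjusted p = 0.00194), and 1.36 with a common floor. Tnfaip3, the deubiquitinase A20, changed by 1.26 (SE 0.36, adjusted p = 0.0126). Socs3, an inhibitor of cytokine receptor signals, changed by 1.33 (SE 0.43, adjusted p = 0.0239). Nfkbiz, an atypical nuclear member, changed by 0.64 (SE 0.20, adjusted p = 0.0192). Among 13 tested genes of the tumour necrosis factor family 4 rose (30.8%) and 1 fell (3 and 3 at a median of -0.06 after centring each lung, 2 rising of 12 with a common floor), and the median change of 0.48 (log2) divided into 0.63 on day 1 and 0.22 on day 2. The share that rose is that of all tested genes, 30.7%. Tnfrsf11a, the receptor RANK, changed by 1.21 (SE 0.21, adjusted p = 0.000914), and Tnfrsf1b, which binds tumour necrosis factor, by 2.05 (SE 0.53, adjusted p = 0.00818). Tnfsf10, the death ligand TRAIL, went down and changed by -0.52 (SE 0.16, adjusted p = 0.0193). Tnfaip3 no longer passed without WT female saline lung 1 of day 1, at an adjusted p of 0.067. Nfkbiz (2 lungs, adjusted p up to 0.112), Socs3 (4 lungs, adjusted p up to 0.111) and Tnfsf10 (2 lungs, adjusted p up to 0.0882) lost their calls when any 1 of that many of the 12 WT lungs was left out.

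A subunit of the phagocyte oxidase rose, while an oxidase of other cells fell. Cybb, the catalytic subunit of that oxidase, stood at 556, 623, 739.6, 1033 and 1121 normalized counts in the 5 saline lungs, while the 7 dust lungs ran from 1305 to 6462 with a median of 4593. The dust and saline ranges did not meet. The log2 ratio of dust to saline was 2.26 (SE 0.33, adjusted p = 0.000465). Nox4, an oxidase of endothelium and fibroblasts, stood at 799, 1151, 1172, 1349 and 1364 normalized counts in the 5 saline lungs and, in dust lungs, had a lowest value of 332, a median of 764 and a highest of 976. The groups overlapped, with all 3 dust lungs of day 2 at or above the lowest saline lung. Nox4 changed by -0.78 (SE 0.24, adjusted p = 0.0192). Of the 5 tested oxidase and nitric oxide genes, 2 rose and 1 fell. Nox4 (2 lungs, adjusted p up to 0.106) lost its call when any 1 of that many of the 12 WT lungs was left out.

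Genes induced by interferon were near the background. The 9 tested interferon-induced genes showed a median change of 0.76 (log2), 1.19 on day 1 and 0.24 on day 2, and 2 rose (22.2%) and 0 fell (0 rising of 9 with a common floor, 1 and 0 without the doubted lungs). The 22.2% that rose compares with 30.7% of all tested genes. Both that rose are chemokines for T cells. Cxcl10 was at the floor in 2 saline lungs and at 32.1, 44.1 and 86.1 normalized counts in the other 3; the dust lungs had a median of 293, between 60.3 and 670.2. Dust lungs that did not exceed the highest saline lung were WT female dust lung 2 of day 2 and WT male dust lung 1 of day 2. The log2 fold change of Cxcl10 was 2.48 (SE 0.70, adjusted p = 0.0124), and 1.39 and not past the threshold with a common floor. Cxcl9 changed by 2.59 (SE 0.90, adjusted p = 0.0342), and 1.55 and not past the threshold with a common floor. Neither Isg15, a ubiquitin-like protein, nor the transcription factor Irf7 passed, at log2 values of 1.29 (SE 0.54, adjusted p = 0.0757) and 1.01 (SE 0.41, adjusted p = 0.0651). Cxcl10 no longer passed without WT female saline lung 1 of day 1, at an adjusted p of 0.0972. Cxcl9 (8 lungs, adjusted p up to 0.143) lost its call when any 1 of that many of the 12 WT lungs was left out.

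Macrophage genes rose, including most members of a list of alveolar macrophage genes, although the airways had been lavaged. Of the 12 tested alveolar macrophage genes, 8 rose (66.7%) and 0 fell. Mrc1 at 0.60 (adjusted p = 0.0518), Siglec1 at 0.92 (adjusted p = 0.0998), Fabp4 at 0.37 (adjusted p = 0.188) and Pparg at 0.20 (adjusted p = 0.711) did not pass. The median change over the list was 1.23 (log2), from 1.61 on day 1 and 0.91 on day 2. The day difference passed for 0 of these 12, against 16.2% of all tested genes. Marco, a scavenger receptor for inhaled particles, stood at 88.3, 106, 126, 149.8 and 243 normalized counts in the 5 saline lungs, against 368 at the lowest, 755 at the median and 843 at the highest of the 7 dust lungs. The saline range ended below the lowest dust lung. Its log2 fold change was 2.15 (SE 0.30, adjusted p = 0.000264), with 2.52 on day 1 and 1.79 on day 2. Ctsd, a lysosomal protease, stood at 4851, 5846, 6088, 6715 and 7234 normalized counts in the 5 saline lungs, while the 7 dust lungs ran from 8045 to 23928 with a median of 21601. Dust and saline lungs were fully apart. Ctsd changed by 1.52 (SE 0.25, adjusted p = 0.000798). Itgax, the integrin CD11c, also on the list of dendritic cell genes, changed by 1.76 (SE 0.30, adjusted p = 0.000871), and Siglecf, a lectin of alveolar macrophages and eosinophils, by 0.57 (SE 0.21, adjusted p = 0.043). The summed level of this list was 12858 to 28481 in saline lungs and 21542 to 55220.4 in dust lungs. Siglecf (7 lungs, adjusted p up to 0.165) lost its call when any 1 of that many of the 12 WT lungs was left out.

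Among 16 tested monocyte and tissue macrophage genes 13 rose (81.2%) and 0 fell, and the median change of 1.34 (log2) divided into 2.04 on day 1 and 0.80 on day 2. Fcgr3, a receptor for antibody complexes, stood at 70.4, 71.3, 76.4, 103 and 103 normalized counts in the 5 saline lungs and, in dust lungs, had a lowest value of 139, a median of 434 and a highest of 533. All 7 dust lungs lay above every saline lung. Fcgr3 changed by 2.12 (SE 0.28, adjusted p = 0.000254). Adgre1, the antigen F4/80, changed by 1.94 (SE 0.37, adjusted p = 0.00153). Itgam, the integrin CD11b shared with neutrophils, changed by 2.19 (SE 0.44, adjusted p = 0.00168), and Cd68, of lysosomes, by 1.69 (SE 0.34, adjusted p = 0.00168). Mmp12, macrophage elastase, was at the floor in 1 saline lung and at 44.1, 94.1, 99.9 and 766 normalized counts in the other 4; the dust lungs had a median of 1499, between 484 and 3091. There was overlap, through WT female dust lung 2 of day 2 and WT male dust lung 1 of day 2. The fitted log2 fold change was 3.62 (SE 0.69, adjusted p = 0.00137), and 2.96 with a common floor. The summed level of these genes was 8853 to 11582 in saline lungs and 9941 to 25524 in dust lungs.

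The 6 tested complement genes showed a median change of 1.74 (log2), 2.33 on day 1 and 1.06 on day 2, and 6 rose (100%) and 0 fell. C1qb, a chain of the protein that opens the classical complement pathway, stood at 294, 316, 484, 498 and 502 normalized counts in the 5 saline lungs, against 539 at the lowest, 2283 at the median and 3201 at the highest of the 7 dust lungs. No dust lung reached down to the saline range. C1qb changed by 2.03 (SE 0.41, adjusted p = 0.00168), and the chains C1qa and C1qc by 1.64 (SE 0.31, adjusted p = 0.00128) and 1.83 (SE 0.37, adjusted p = 0.00168). C3ar1, the receptor for the fragment C3a, changed by 2.42 (SE 0.51, adjusted p = 0.00208). Of the 12 tested metalloproteinases, their inhibitors and cathepsins, 7 rose (58.3%) and 1 fell (6 and 2 at a median of 0.86 after centring each lung). Their median change was 1.40 (log2), from 1.75 on day 1 and 0.69 on day 2. Ctss, a cathepsin of antigen-presenting cells, changed by 1.73 (SE 0.33, adjusted p = 0.00137), and Mmp19 by 1.34 (SE 0.25, adjusted p = 0.00121). The member that fell was Timp3, an inhibitor of metalloproteinases bound to matrix, which stood at 7219.8, 8472, 8671, 10860.5 and 11389 normalized counts in the 5 saline lungs, while the 7 dust lungs ran from 4273 to 8395 with a median of 5839.7. The ranges met, since WT female dust lung 2 of day 2 and WT male dust lung 1 of day 2 did not lie under the lowest saline lung. Timp3 changed by -0.65 (SE 0.19, adjusted p = 0.0148). Timp3 no longer passed without WT female saline lung 1 of day 1, at an adjusted p of 0.106.

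Genes of alternative activation, known from type 2 responses, were near the background share. Among 18 tested alternative activation genes 5 rose (27.8%) and 0 fell (1 and 2 at a median of 0.09 after centring each lung, 8 and 0 without the doubted lungs), and the median change of 0.62 (log2) divided into 1.09 on day 1 and 0.31 on day 2. Chil3, a chitinase-like protein of macrophages, stood at 5899, 6336, 7237, 8362 and 19242 normalized counts in the 5 saline lungs and, in dust lungs, had a lowest value of 9859, a median of 21860.2 and a highest of 33039. Overlap with the saline range came from WT female dust lung 2 of day 1, WT male dust lung 2 of day 1 and WT female dust lung 2 of day 2. In log2 terms it changed by 1.21 (SE 0.37, adjusted p = 0.0192). Chil4, close kin of Chil3, changed by 1.01 (SE 0.27, adjusted p = 0.0105). Such near copies can share probes, so their values are not told apart with certainty. Il4ra, a receptor chain for interleukins 4 and 13, changed by 0.99 (SE 0.28, adjusted p = 0.0121), and the chemokine Ccl8 by 2.10 (SE 0.48, adjusted p = 0.00378), and 1.22 with a common floor. Retnla, a secreted protein of these macrophages, stood at 1628, 1871, 3449, 4891 and 39489.6 normalized counts in the 5 saline lungs; the dust lungs had a median of 9605, between 6351 and 14232. It did not pass, its log2 change being 0.83 (SE 0.41, adjusted p = 0.129). A single saline lung, female lung 1 of day 2, was above every dust lung. Ccl8, Chil4, Il4ra and Chil3 no longer passed without WT female saline lung 1 of day 1, at adjusted p from 0.0514 to 0.151.

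Lipid receptors and enzymes rose in part. The 11 tested lipid receptors and fatty acid genes showed a median change of 0.36 (log2), 0.47 on day 1 and 0.48 on day 2, and 5 rose (45.5%) and 0 fell (3 and 1 at a median of -0.17 after centring each lung). Trem2, a receptor for lipids on macrophages, was at the floor in 1 saline lung and at 37.4, 50.5, 81.7 and 119 normalized counts in the other 4, against 106 at the lowest, 425 at the median and 497 at the highest of the 7 dust lungs. The groups overlapped, with WT female dust lung 2 of day 2 at or below the highest saline lung. The log2 ratio of dust to saline was 2.59 (SE 0.56, adjusted p = 0.00253), and 1.76 with a common floor. Olr1, a receptor for oxidised lipoprotein, changed by 1.84 (SE 0.32, adjusted p = 0.000909). Lpl, lipoprotein lipase, changed by 1.24 (SE 0.26, adjusted p = 0.00191), and Apoe, the lipid carrier, by 0.98 (SE 0.26, adjusted p = 0.00971). Of the 12 tested eicosanoid genes, 1 rose (8.33%) and 1 fell (8.33%) (1 and 1 at a median of -0.34 after centring each lung, 3 rising of 11 with a common floor). The median change over the list was 0.19 (log2), from 0.10 on day 1 and 0.26 on day 2. Alox5ap, which feeds leukotriene synthesis, changed by 1.24 (SE 0.25, adjusted p = 0.0019). Hpgd, the dehydrogenase that inactivates prostaglandins, went the other way. It stood at 8061, 9865, 10059, 13489.6 and 15612 normalized counts in the 5 saline lungs, while the 7 dust lungs ran from 2303 to 9499 with a median of 5784. There was overlap, through WT female dust lung 2 of day 2. Hpgd changed by -1.25 (SE 0.33, adjusted p = 0.00874). Hpgd no longer passed without WT female saline lung 1 of day 1, at an adjusted p of 0.0725.

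Genes of antigen presentation rose at about the background share. Among 19 tested genes of class II and antigen presentation 6 rose (31.6%) and 0 fell (3 and 1 at a median of -0.09 after centring each lung), and the median change of 0.45 (log2) divided into 0.76 on day 1 and 0.11 on day 2. The 6 were Ctss, Cd80, Cd1d1, Cd86, H2-D1 and Tap2, none of them a class II gene. The class II genes H2-Ab1, H2-Aa and H2-Eb1 changed by 0.45, 0.48 and 0.52 and did not pass, at adjusted p from 0.102 to 0.177. Cd80, a costimulator of T cells, stood at 68.1, 71.6, 73.0, 74.6 and 77.2 normalized counts in the 5 saline lungs and, in dust lungs, had a lowest value of 102, a median of 207 and a highest of 269.8. Every dust lung exceeded the highest saline lung. Cd80 changed by 1.26 (SE 0.25, adjusted p = 0.00168). Its companion Cd86 changed by 1.09 (SE 0.36, adjusted p = 0.0257), and 0.57 and not past the threshold with a common floor, and Cd1d1, which presents lipids, by 1.16 (SE 0.28, adjusted p = 0.00482). The 14 tested dendritic cell genes showed a median change of 0.72 (log2), 1.43 on day 1 and 0.20 on day 2, and 7 rose (50%) and 0 fell (2 and 1 at a median of 0.19 after centring each lung, 4 rising of 13 with a common floor). Sirpa, of myeloid cells and one class of dendritic cell, changed by 1.20 (SE 0.23, adjusted p = 0.00135). Fscn1, an actin bundler of mature dendritic cells, changed by 0.99 (SE 0.31, adjusted p = 0.0224), and the transcription factor Irf8 by 0.61 (SE 0.20, adjusted p = 0.0234). Cd86 (7 lungs, adjusted p up to 0.0849), Fscn1 (4 lungs, adjusted p up to 0.105) and Irf8 (4 lungs, adjusted p up to 0.125) lost their calls when any 1 of that many of the 12 WT lungs was left out.

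Some genes of lymphoid aggregates rose, at the background share. Of the 13 tested lymphoid aggregate genes, 4 rose (30.8%) and 0 fell (3 and 3 at a median of -0.16 after centring each lung). Their median change was 0.37 (log2), from 0.48 on day 1 and 0.00 on day 2. Cxcl13, the chemokine that gathers B cells, stood at 70.1, 71.3, 78.1, 104 and 144 normalized counts in the 5 saline lungs; the dust lungs had a median of 259, between 93.2 and 894. The ranges met, since WT female dust lung 1 of day 2 and WT female dust lung 2 of day 2 did not exceed the highest saline lung. Its log2 fold change was 1.70 (SE 0.44, adjusted p = 0.00845). Ltb, a ligand that builds lymphoid tissue, was at the floor in 1 saline lung and at 74.9, 85.2, 90.0 and 92.8 normalized counts in the other 4, against 69.1 at the lowest, 275 at the median and 363 at the highest of the 7 dust lungs. Dust lungs that did not exceed the highest saline lung were WT female dust lung 2 of day 2 and WT male dust lung 1 of day 2. Ltb changed by 1.59 (SE 0.45, adjusted p = 0.0124), and 1.12 with a common floor. Cxcr4, the receptor for Cxcl12, changed by 1.35 (SE 0.41, adjusted p = 0.0187), and Ccl19, a chemokine of T cell zones, by 1.63 (SE 0.50, adjusted p = 0.0185), and 0.86 and not past the threshold with a common floor. Of the 4 tested B cell genes 2 rose, Btk by 0.85 (SE 0.27, adjusted p = 0.0204) and Fcer2a, the antigen CD23, by 1.14 (SE 0.41, adjusted p = 0.0373), and 0.05 and not past the threshold with a common floor. The number rising was 0 after centring each lung, 1 with a common floor and 1 without the doubted lungs. Ms4a1, the B cell antigen CD20, did not pass and ran from 166 to 318 normalized counts in saline lungs and from 121 to 673 in dust lungs. The summed level of the list was 382 to 536 in saline lungs and 364 to 1174 in dust lungs. Ltb and Ccl19 no longer passed without WT female saline lung 1 of day 1, at adjusted p from 0.121 to 0.167. Cxcr4 (3 lungs, adjusted p up to 0.153), Btk (2 lungs, adjusted p up to 0.0818) and Fcer2a (9 lungs, adjusted p up to 0.108) lost their calls when any 1 of that many of the 12 WT lungs was left out.

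Among 8 tested genes of T and cytotoxic cells 2 rose (25%) and 2 fell (25%) (1 and 2 at a median of -0.21 after centring each lung, 0 rising of 7 with a common floor, 1 and 2 without the doubted lungs), and the median change of 0.32 (log2) divided into 0.56 on day 1 and -0.18 on day 2. Icos, a costimulator of activated T cells, changed by 1.70 (SE 0.42, adjusted p = 0.00627), and 0.43 and not past the threshold with a common floor, and the checkpoint Ctla4 by 1.55 (SE 0.56, adjusted p = 0.0397), and 0.49 and not past the threshold with a common floor. The members that fell are Gzma and Gata3. Gzma, a granule protease of cytotoxic cells, stood at 219, 232, 238, 274 and 402 normalized counts in the 5 saline lungs, while the 7 dust lungs ran from 76.5 to 238 with a median of 156. Overlap with the saline range came from WT female dust lung 2 of day 1. Gzma changed by -0.85 (SE 0.23, adjusted p = 0.0106), with -0.72 on day 1 and -0.98 on day 2. Gata3, a transcription factor of type 2 lymphocytes, stood at 85.3, 93.4, 94.0, 107 and 114 normalized counts in the 5 saline lungs and, in dust lungs, had a lowest value of 37.0, a median of 63.5 and a highest of 81.6. All 7 dust lungs lay below every saline lung. Gata3 changed by -0.75 (SE 0.22, adjusted p = 0.0167), and -0.22 and not past the threshold with a common floor. The 13 tested genes of mast cells, eosinophils and basophils showed a median change of -0.10 (log2), 0.04 on day 1 and -0.02 on day 2, and 2 rose (15.4%) and 1 fell (0 and 6 at a median of -0.63 after centring each lung, 1 rising of 7 with a common floor, 1 and 0 without the doubted lungs). Ear6, a ribonuclease of eosinophils, changed by 0.57 (SE 0.20, adjusted p = 0.0354), and the gene was not tested with a common floor. No dust lung lay above the 64.8 that the floor of WT female saline lung 1 of day 1 can hide, so its rise as listed may lie within the floor. The near copies of Ear6 make the source of its counts uncertain. Kitl, the growth factor of mast cells, was the member that fell, with a change of -0.47 (SE 0.17, adjusted p = 0.0394). Gzma and Icos no longer passed without WT female saline lung 1 of day 1, at adjusted p from 0.0543 to 0.0896. Gata3 (2 lungs, adjusted p up to 0.0508), Ctla4 (9 lungs, adjusted p up to 0.191), Ear6 (8 lungs, adjusted p up to 0.249) and Kitl (7 lungs, adjusted p up to 0.156) lost their calls when any 1 of that many of the 12 WT lungs was left out.

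**Figure D3:**
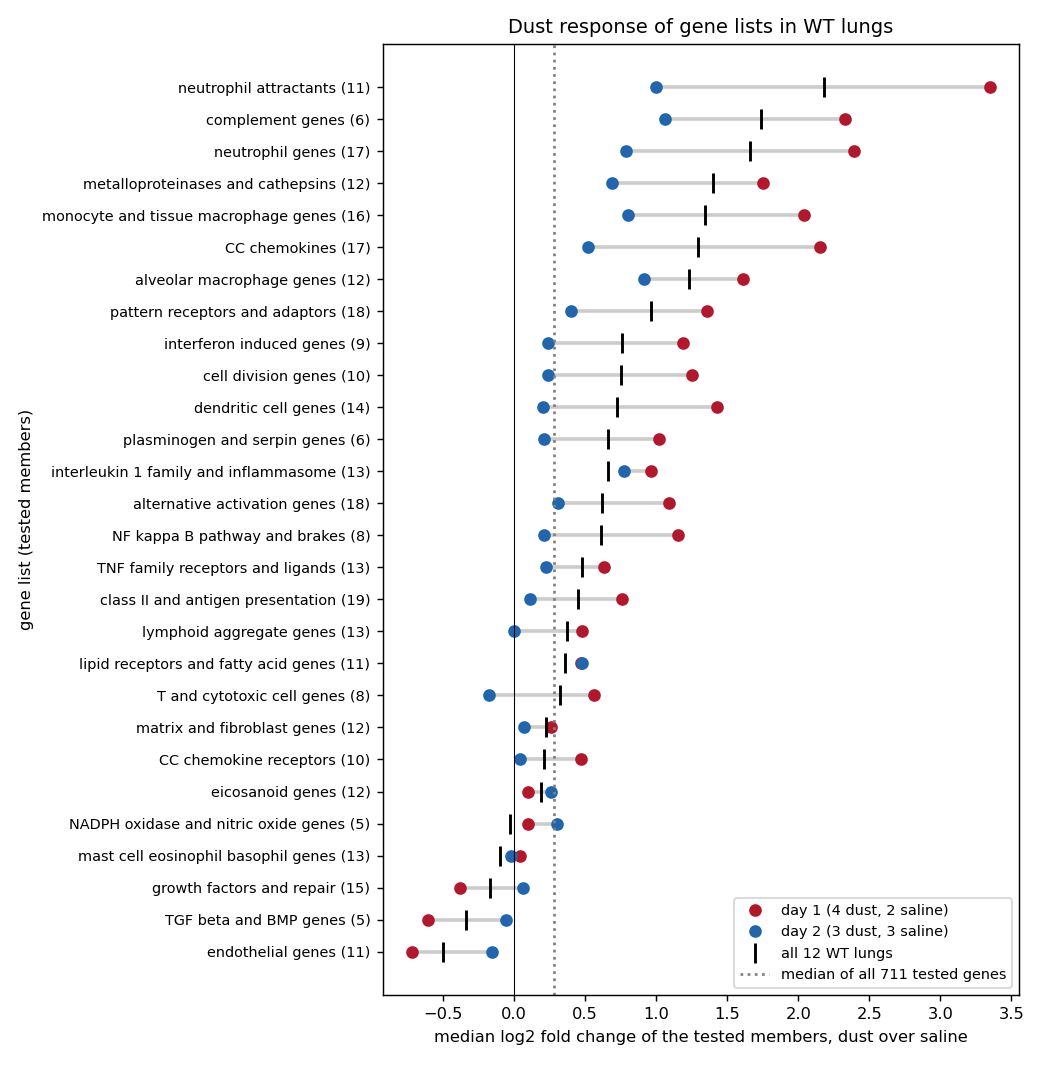
Median log2 fold change of dust over saline in WT lungs for gene lists with at least 5 tested members (number in brackets), in red for day 1, blue for day 2 and as a black bar for all 12 lungs, with a dotted line at the median of all 711 tested genes (0.28). Neutrophil attractants stand highest at 2.18 as deposited (1.10 with a common floor, under 5 other lists) and endothelial genes lowest at -0.50, and the red points lie farther from 0 than the blue ones for both.

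Several genes of the vessel wall fell, and with all lungs in the fit no member of their list rose. Of the 11 tested endothelial genes, 0 rose and 5 fell (45.5%) (0 and 8 at a median of -1.03 after centring each lung). Without the doubted lungs, where a single female saline lung remained, the median was -0.61 and the lack of rising members did not hold. Members that did not pass went both ways. Selp, Vcam1, Sele and Icam1 changed by 0.77, 0.39, 0.22 and 0.09, and Flt1 and Angpt2 by -0.50 and -0.42. The median change over the list was -0.50 (log2), from -0.72 on day 1 and -0.16 on day 2. Their summed level was 11692 to 15084 in saline lungs and 5782 to 12098 in dust lungs. Angpt1, the ligand that keeps Tek active, stood at 273, 330.2, 393, 408 and 548 normalized counts in the 5 saline lungs; the dust lungs had a median of 166, between 73.9 and 254. No dust lung reached up to the saline range. The fitted log2 fold change was -1.33 (SE 0.31, adjusted p = 0.00441). Tek, its receptor, stood at 1429, 1882, 2041, 2310.4 and 2654 normalized counts in the 5 saline lungs, against 709 at the lowest, 1062 at the median and 1577 at the highest of the 7 dust lungs. The groups overlapped, with WT female dust lung 2 of day 2 at or above the lowest saline lung. Tek changed by -0.91 (SE 0.27, adjusted p = 0.0169). Ptprb, a phosphatase that acts on Tek, changed by -0.96 (SE 0.25, adjusted p = 0.00845). Cdh5, the cadherin of endothelial junctions, stood at 1404, 1490.5, 1589, 1625 and 2087 normalized counts in the 5 saline lungs, while the 7 dust lungs ran from 880.0 to 1537 with a median of 1005. The ranges met, since WT female dust lung 2 of day 2 did not lie under the lowest saline lung. Cdh5 changed by -0.65 (SE 0.15, adjusted p = 0.00386). Thbd, thrombomodulin, which holds back clotting on endothelium, stood at 4211, 4233, 4637, 4868 and 4931 normalized counts in the 5 saline lungs and, in dust lungs, had a lowest value of 1326, a median of 2264 and a highest of 4582. There was overlap, through WT female dust lung 2 of day 2. Thbd changed by -1.03 (SE 0.36, adjusted p = 0.0327). Erg, a transcription factor of endothelium, was below the saline range in all 7 dust lungs and changed by -0.66 (SE 0.15, adjusted p = 0.00386). Cdh13, a cadherin of vessels, changed by -1.10 (SE 0.30, adjusted p = 0.0105). Cdh13 and Ptprb no longer passed without WT female saline lung 1 of day 1, at adjusted p from 0.0614 to 0.0778. Thbd (8 lungs, adjusted p up to 0.11) and Tek (2 lungs, adjusted p up to 0.12) lost their calls when any 1 of that many of the 12 WT lungs was left out.

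The other falling genes came from several groups. Among 5 tested genes of TGF-beta and BMP signalling 1 rose (20%) and 2 fell (40%) (0 and 4 at a median of -0.87 after centring each lung), and the median change of -0.34 (log2) divided into -0.61 on day 1 and -0.06 on day 2. Bmp6, a bone morphogenetic protein, stood at 1015, 1078, 1079, 1167 and 1192 normalized counts in the 5 saline lungs; the dust lungs had a median of 444, between 295 and 806. The dust range ended below the lowest saline lung. In log2 terms it changed by -1.28 (SE 0.23, adjusted p = 0.00105). Tgfbr3, the co-receptor betaglycan, changed by -0.95 (SE 0.34, adjusted p = 0.0408) in the same direction. Smad7, an inhibitor of the pathway, did not pass, its log2 change being -0.34 (SE 0.13, adjusted p = 0.0574). Tgfb1, the ligand itself, rose by 0.69 (SE 0.19, adjusted p = 0.0112). The 15 tested growth factors and repair genes showed a median change of -0.17 (log2), -0.38 on day 1 and 0.06 on day 2, and 3 rose (20%) and 2 fell (1 and 9 at a median of -0.71 after centring each lung, 1 rising of 13 with a common floor). Fgf7, a growth factor of epithelium, went down and changed by -0.57 (SE 0.19, adjusted p = 0.0327). Csf1, the growth factor of macrophages, rose by 1.18 (SE 0.38, adjusted p = 0.0238), Igf1 by 1.09 (SE 0.27, adjusted p = 0.00519), and the gene was not tested with a common floor, and Areg, a ligand of the epidermal growth factor receptor, by 1.15 (SE 0.39, adjusted p = 0.0315), and 0.46 and not past the threshold with a common floor. Igf1 no longer passed without WT female saline lung 1 of day 1, at an adjusted p of 0.0569. Tgfb1 was at an adjusted p of 0.0529 without WT female saline lung 1 of day 2. Tgfbr3 (10 lungs, adjusted p up to 0.163), Csf1 (4 lungs, adjusted p up to 0.134), Areg (5 lungs, adjusted p up to 0.227) and Fgf7 (7 lungs, adjusted p up to 0.106) lost their calls when any 1 of that many of the 12 WT lungs was left out.

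Klf4, a transcription factor of endothelium, epithelium and monocytes, stood at 1164, 1179.7, 1694, 1771 and 1839 normalized counts in the 5 saline lungs, against 521 at the lowest, 758 at the median and 1458 at the highest of the 7 dust lungs. Overlap with the saline range came from WT female dust lung 2 of day 2 and WT male dust lung 1 of day 2. Klf4 changed by -0.78 (SE 0.25, adjusted p = 0.0238). Col17a1, a collagen of epithelial anchoring, changed by -0.92 (SE 0.34, adjusted p = 0.0439), and -0.09 and not past the threshold with a common floor, and Lamp3, of alveolar type II cells and mature dendritic cells, by 0.45 (SE 0.15, adjusted p = 0.0332). Among genes with no overlap, Id3, an inhibitor of helix-loop-helix factors, changed by -0.48 (SE 0.14, adjusted p = 0.0162), Adgre5, the antigen CD97, by -0.63 (SE 0.15, adjusted p = 0.00466), and Fbxl7, a ubiquitin ligase subunit, by -0.85 (SE 0.27, adjusted p = 0.0235), and -0.41 with a common floor. Rgs6, a regulator of G protein signals, changed by -0.88 (SE 0.33, adjusted p = 0.0473), and -0.37 with a common floor. Id3 no longer passed without WT female saline lung 1 of day 1, at an adjusted p of 0.0851. Col17a1 (9 lungs, adjusted p up to 0.273), Rgs6 (10 lungs, adjusted p up to 0.191), Fbxl7 (3 lungs, adjusted p up to 0.0975), Klf4 (5 lungs, adjusted p up to 0.082) and Lamp3 (7 lungs, adjusted p up to 0.0896) lost their calls when any 1 of that many of the 12 WT lungs was left out.

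Matrix genes rose at about the background share of 30.7%. Of the 12 tested matrix and fibroblast genes, 4 rose (33.3%) and 1 fell (3 and 5 at a median of -0.32 after centring each lung). Their median change was 0.22 (log2), from 0.26 on day 1 and 0.07 on day 2. Fn1, fibronectin, stood at 2282, 2506, 2709.9, 4845 and 5009 normalized counts in the 5 saline lungs, while the 7 dust lungs ran from 3782 to 11234 with a median of 8309. There was overlap, through WT female dust lung 2 of day 2. The log2 ratio of dust to saline was 1.12 (SE 0.24, adjusted p = 0.00218). Tnc, tenascin C, changed by 1.64 (SE 0.45, adjusted p = 0.011), and Col3a1, collagen III, by 1.21 (SE 0.34, adjusted p = 0.0121). The fibroblast receptor gene Pdgfra ran from 1087 to 1465 normalized counts in saline lungs and from 858 to 1452 in dust lungs. Among 6 tested plasminogen and serpin genes 3 rose (50%) and 0 fell (0 and 1 at a median of 0.13 after centring each lung), and the median change of 0.66 (log2) divided into 1.02 on day 1 and 0.21 on day 2. Plaur, the urokinase receptor, stood at 438, 456, 474, 493 and 498 normalized counts in the 5 saline lungs and, in dust lungs, had a lowest value of 537, a median of 864 and a highest of 996. The dust and saline ranges did not meet. Plaur changed by 0.80 (SE 0.18, adjusted p = 0.00386). Serpinb9, an inhibitor of granzyme, changed by 0.64 (SE 0.21, adjusted p = 0.0285), and Plau, urokinase, by 0.80 (SE 0.29, adjusted p = 0.0426), and 0.10 and not past the threshold with a common floor. The 10 tested cell division genes showed a median change of 0.75 (log2), 1.25 on day 1 and 0.24 on day 2, and 4 rose (40%) and 0 fell (0 and 2 at a median of 0.21 after centring each lung, 1 rising of 6 with a common floor). That too is near the background share. Top2a, a topoisomerase of dividing cells, changed by 0.91 (SE 0.32, adjusted p = 0.0339), and Kif20a, a kinesin of cell division, by 1.25 (SE 0.38, adjusted p = 0.0182), and 0.12 and not past the threshold with a common floor. Pf4, a platelet chemokine, changed by 1.20 (SE 0.34, adjusted p = 0.0124). Tnc and Pf4 no longer passed without WT female saline lung 1 of day 1, at adjusted p from 0.0569 to 0.0595. Col3a1 was at an adjusted p of 0.0522 without WT female saline lung 1 of day 2. Kif20a (2 lungs, adjusted p up to 0.149), Top2a (8 lungs, adjusted p up to 0.1), Serpinb9 (6 lungs, adjusted p up to 0.233) and Plau (8 lungs, adjusted p up to 0.375) lost their calls when any 1 of that many of the 12 WT lungs was left out.

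The dust response was next compared between WT females (4 dust, 2 saline) and WT males (3 and 3). The difference between sexes passed for 0 of 711 genes (0%) by limma, with 13 at an unadjusted p under 0.05 (1.83%) and a lowest adjusted p of 0.93. The median half-width of the 95% interval of a difference was 1.06 on the log2 scale, so a difference of that size could not be told from none for a typical gene. Taken alone, males had 143 higher (20.1%) and 21 lower genes (2.95%) and females 0 of either, which is no test of a difference. By sign all 218 rising genes were higher in dust in both sexes, and 32 of the 33 falling genes lower in both, the exception being Kitl. The genes were called on the mean of both sexes in these same lungs, so the choice itself favours such agreement. The smallest p belonged to Lrp6, a co-receptor for Wnt, whose female minus male difference was 1.08 (95% interval 0.48 to 1.67, adjusted p = 0.93). Clec1b, a receptor of platelets, differed by 1.53 (95% interval 0.52 to 2.54, adjusted p = 0.954), and the transcription factor Pbx3 by 0.78 (95% interval 0.23 to 1.33, adjusted p = 0.954). Kitl differed by 0.95 (95% interval 0.24 to 1.66, adjusted p = 0.954), with a female change of 0.01 and a male change of -0.95. Retnla differed by -2.24 (95% interval -3.98 to -0.50, adjusted p = 0.954), with 4891 and 39489.6 normalized counts in the female saline lungs. Without WT female saline lung 1 of day 1, the female saline group is the single lung 1 of day 2, assumed to vary like the other groups. In that fit 3 genes passed: Retnla at -3.75 (adjusted p = 0.0147), Rnase2a, an eosinophil ribonuclease, at -3.69 (adjusted p = 0.0147) and Fbp1, an enzyme of glucose synthesis, at -0.93 (adjusted p = 0.013). That lung had 296 counts of Rnase2a, above all other WT lungs.

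The days of extraction gave unlike dust responses. Among the 12 WT lungs the day 1 response differed from the day 2 response for 115 of 711 genes (16.2%), being more positive on day 1 for 97 (13.6%) and more negative for 18 (2.53%), with 253 at an unadjusted p under 0.05 (35.6%). Of the 97 genes, 80 were among the 218 that rose, and of the 18, 8 were among the 33 that fell. Medians for the rising genes were 1.82 on day 1 and 0.61 on day 2 (log2 fold change), and for the falling genes -1.01 and -0.34. By sign in this fit, which does not weight the sexes, the day 2 lungs followed the pooled result for 215 of the 218 rising genes, the exceptions being Fcer2a, Havcr2 and Ltb, and for all 33 falling ones. With sexes weighted alike Ctla4 was an exception as well, at -0.22 on day 2. The day 2 lungs were part of the fit that chose these genes, which favours agreement of sign. The rise was larger on day 1 for 214 of 218, except for Ear6, Lamp3, Runx2 and Siglecf, and the fall for 32 of 33, except for Gzma. Tested within a day, day 1 gave 297 higher (41.8%) and 64 lower genes (9%) from 4 against 2 lungs, and day 2 gave 0 of either (0%) from 3 against 3, with 57 genes at an unadjusted p under 0.05 when fitted alone.

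Among the dust lungs, those of day 1 lay above the highest saline lung for 209 to 217 of the 218 rising genes as listed, and for 201 to 208 whatever the floor hides. On day 2, WT female dust lung 1 did so for 188 genes as listed, WT male dust lung 1 for 155 and WT female dust lung 2 for 64 (29.4%), or 176, 150 and 50. The genes were called from these same lungs, which favours high counts, and no count over all tested genes was made for single lungs. The saline lungs differed as well, since both saline lungs of day 1 were the shallowest of the 12. The fit without the doubted lungs leaves 1 saline lung on day 2, WT male saline lung 2, whose title says female dust. Day differences in it were 2.77 for Tlr1, 3.01 for Nfkbie, 2.60 for Dusp2, 2.82 for Tnf and 1.92 for Fcer2a. They were 1.27 for Il12b, 1.70 for Col15a1, 1.53 for Nod2 and -1.34 for Tlr5. For Nod2 and Il12b no dust lung lay above the 64.8 that the floor of WT female saline lung 1 of day 1 can hide. Few of the 115 genes still passed for the day difference in that fit. Leaving out single lungs gave 46 without WT female dust lung 2 of day 1, 49 without WT male dust lung 1 of day 1, 52 without WT male dust lung 2 of day 1, 56 without WT female dust lung 2 of day 2, 59 without WT female saline lung 1 of day 2 and 71 without WT female saline lung 1 of day 1. With the groups of the characteristics in place of the codes the number was 22, and with each lung centred on its median 47 were more positive and 67 more negative on day 1. The column headers also split the WT lungs into a pair of runs, the first with 4 dust and 2 saline lungs and the second with 3 and 3. Both saline lungs of day 1 were in the second, and the day difference was not fitted with run. Day and depth moved together, and run in part with them, and their parts in the difference cannot be told apart here.

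Nfkbie gave the smallest p for the day difference. It ran at 269 to 345 normalized counts in the dust lungs of day 1 and 113 to 179 in those of day 2, with the floor in both saline lungs of day 1 and 76.4 to 95.0 in those of day 2. Its day 1 minus day 2 difference was 3.21 (95% interval 2.64 to 3.77, adjusted p = 0.00014), and 1.23 with a common floor. Tlr1, which pairs with Tlr2, ran at 126 to 186 normalized counts in the dust lungs of day 1 and 42.9 to 46.0 in those of day 2. Its difference was 2.61 (95% interval 1.97 to 3.25, adjusted p = 0.00126), and 0.88 with a common floor. Dusp2, a phosphatase of MAP kinases induced in activated leukocytes, differed by 2.79 (95% interval 2.09 to 3.49, adjusted p = 0.00126), and 1.01 with a common floor. For these genes the dust lungs of both days and the saline lungs of day 1 at the floor entered the difference. Fcer2a was at the floor in every saline lung and in all 3 dust lungs of day 2, and at 62.8 to 105 in dust lungs of day 1. As listed it differed by 1.92 (95% interval 1.39 to 2.46, adjusted p = 0.00213), and the difference was 0.08 (adjusted p = 0.696), not past the threshold, with a common floor. Il12b, a subunit of interleukins 12 and 23, had the same pattern with 42.7 to 58.4 in dust lungs of day 1. Its listed difference was 1.27 (95% interval 0.89 to 1.65, adjusted p = 0.0033), but the floor of WT female saline lung 1 of day 1 can hide values of up to 64.8, above all 4 of these dust lungs, so no difference was measured for it. Tnf, the founding cytokine of its family, ran at 262 to 411 normalized counts in the dust lungs of day 1 and 69.4 to 116 in those of day 2 and differed by 2.89 (95% interval 1.95 to 3.84, adjusted p = 0.00577), and 1.68 with a common floor. Ltb ran at 275 to 363 normalized counts in the dust lungs of day 1 and 69.1 to 108 in those of day 2, against 85.2 to 92.8 in the saline lungs of day 2, and differed by 3.10 (95% interval 1.87 to 4.33, adjusted p = 0.01), and 1.88 with a common floor. Cxcr4 ran at 1097 to 1358 normalized counts in the dust lungs of day 1 and 406 to 469.8 in those of day 2 and differed by 2.40 (95% interval 1.46 to 3.34, adjusted p = 0.00942).

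**Figure D4:**
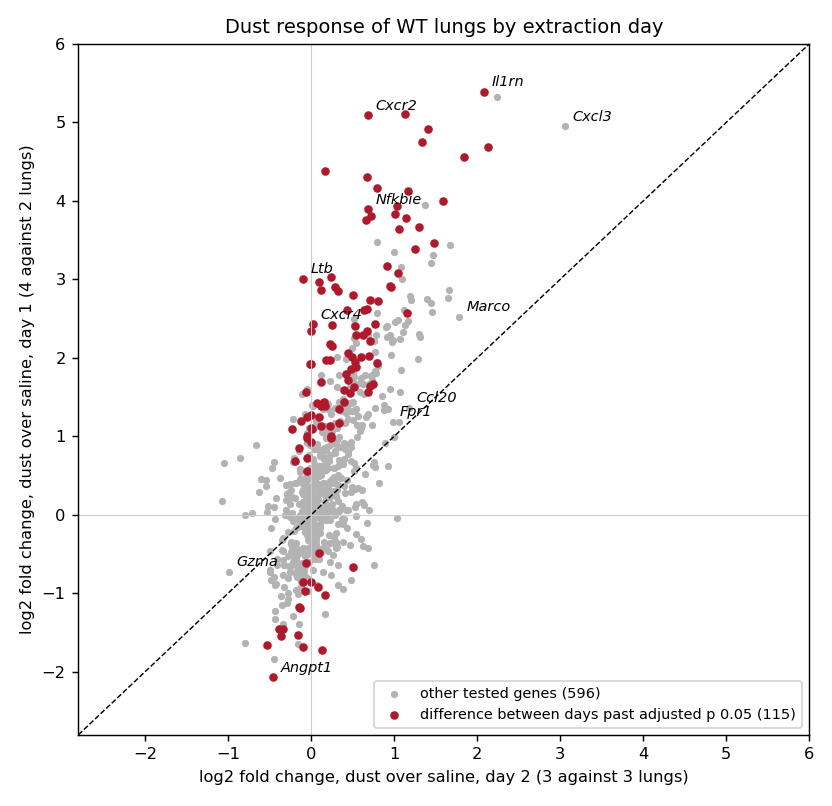
Log2 fold change of dust over saline for the 711 tested genes in WT lungs of day 2 (horizontal axis) and day 1 (vertical axis), with the 115 genes whose difference between days passed in red and a dashed line at equal change. Most labelled rising genes lie above the dashed line, Ltb and Cxcr4 sit near 0 on day 2, and Fpr1 and Ccl20 lie close to the line.

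The WT response was last set against that of the Fat-1 lungs (6 dust, 5 saline), which have controls of their own. The difference of responses passed for 0 of 711 genes (0%) by limma, with 21 at an unadjusted p under 0.05 (2.95%) and a lowest adjusted p of 0.999. Since 3 of the 11 Fat-1 lungs carry WT labels, the groups were also taken from the characteristics, and then 0 genes passed by limma, with 8 at an unadjusted p under 0.05. The median half-width of its 95% interval was 0.76 on the log2 scale, so a difference of that size could have been missed for a typical gene. In Fat-1 lungs 229 genes rose (32.2%) and 42 fell (5.91%). Of the 218 genes that rose in WT, 178 rose in Fat-1, which is 81.7% of the WT list and 77.7% of the Fat-1 list. Of the 33 that fell in WT, 19 fell in Fat-1, which is 57.6% and 45.2% of the lists. By sign Fat-1 followed WT for 216 of 218, except Itgb7 and Sema4b, and for all 33. The median log2 fold change of the WT rising genes was 1.27 in WT and 1.24 in Fat-1, and of the falling genes -0.67 and -0.59. Since the genes were chosen by their WT call, their WT medians are the ones that the choice favours. Across the 711 genes, which are not independent, the log2 fold changes of the genotypes correlated at r = 0.91, with those 3 lungs among the Fat-1 lungs.

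The smallest p for the genotype difference belonged to Rnase2a, whose WT minus Fat-1 difference was -2.05 (95% interval -3.49 to -0.61, adjusted p = 0.999), with -0.27 in WT and 1.77 in Fat-1. Without WT female saline lung 1 of day 1 it passed, at -3.00 (adjusted p = 0.00467). The value of WT female saline lung 1 of day 2, 296, then stood for the female saline group alone. Ccl20 differed by -1.07 (95% interval -1.91 to -0.23, adjusted p = 0.999), with 1.30 in WT and 2.37 in Fat-1. Ifit1bl1, of the interferon-induced IFIT family, differed by 1.23 (95% interval 0.31 to 2.16, adjusted p = 0.999). Vtcn1, an inhibitory ligand of the B7 family, differed by 0.64 (95% interval 0.16 to 1.13, adjusted p = 0.999), and Btg2, a gene that slows cell division, by 1.00 (95% interval 0.23 to 1.76, adjusted p = 0.999).

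**Figure D5:**
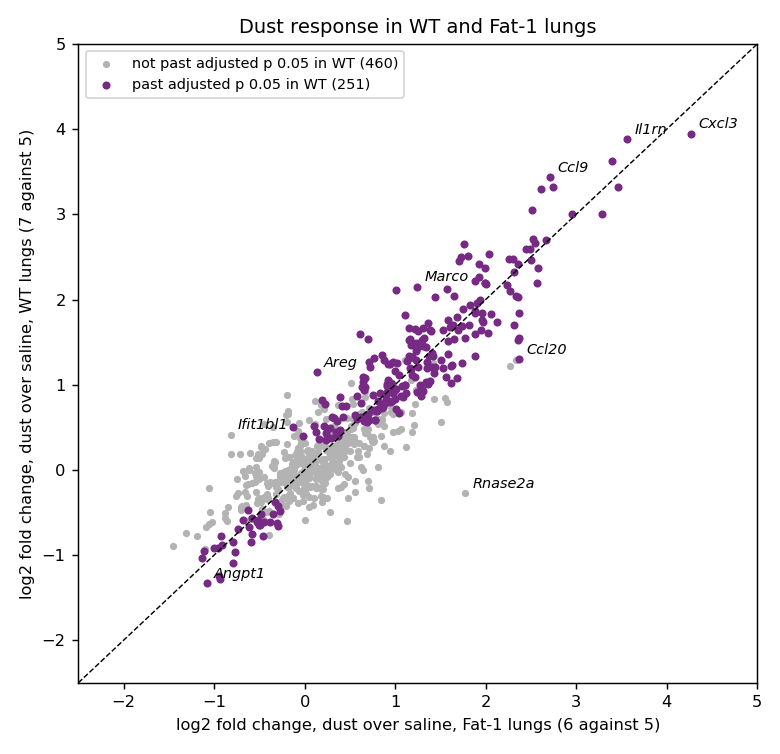
Log2 fold change of dust over saline for the 711 tested genes in Fat-1 lungs (horizontal axis, 6 against 5) and WT lungs (vertical axis, 7 against 5), with the 251 genes called in WT in purple and a dashed line at equal change. The genes scatter along the line, and Rnase2a, the gene with the smallest p for the difference, and Ifit1bl1 lie off it on opposite sides.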

How the data were processed

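Left-lung RNA of 23 mice was measured on a NanoString myeloid panel, and the 12 WT lungs are reported here. The deposited values are a signal: per the file headers and their spacing, the authors scaled the probe counts of a lung by 1 factor. Counts under 20 are listed at 20 without scaling, as are counts that a lung's factor takes under 20, so no count model was fitted. Which software and genes set the factor is not stated in these sources. Groups follow the extract code, per the labels' protocols; title or characteristics of 4 lungs differ from it, 3 of them Fat-1 by code and WT by both other labels. Each lung is a separate mouse's.

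limma 3.58.1 (R 4.3.3) was fitted to log2(value + 1), with 8 group means over 23 lungs and with day by exposure over the 12 WT lungs for the day difference. Genes above the floor in at least 1 lung, 711 of 754, were tested and adjusted by Benjamini-Hochberg at 0.05. The scripts were tested on simulated data. Named genes were the 15 highest and 15 lowest called genes with the same sign in both sexes, up to 4 members per list by smallest p with called members against the majority, and 5 per interaction. S100a8, S100a9, Erg, Id3, Adgre5, Tnf, Ltb and Cxcr4 in the day comparison, the housekeeping genes called, Fbp1 and the exceptions by sign were named after their values were seen. The members and lists were chosen with earlier results of these data known, and the cell division, plasminogen, oxidase and tumour necrosis factor lists after the panel's genes were seen. Among the genes named by that rule, 2 are not reported here. Alternatives were other scalings, floors, filters, blocks and left-out lungs. Promoters are RefSeq's (GRCm38.p6). Tables and plots used Python 3.11.15 with pandas 2.3.3 and matplotlib 3.10.9.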

Additional observations from a re-analysis of the deposited data

Results flagged for a closer look

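Within the 15 highest and 15 lowest genes, 60 groups of WT lungs were looked at for a single lung far from the rest, and 4 stood out, where chance gives about 1 in 20. WT female saline lung 1 of day 2 was the highest saline lung as listed for Cxcl3 (110.09 normalized counts, the others 20 to 22.5), for Il4i1 (58.6, the others at the floor of 20) and for Acod1 (23.97, the others at the floor). For Il4i1 and Acod1 no gap was measured, since the floor of WT female saline lung 1 of day 1 could stand for values of up to 64.8. WT female saline lung 1 of day 1 was the lowest for Clec5a (20, the others 59.0 to 82.5), and the same floor applies there.

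The dust response differed between days for 115 genes, by a test of the difference. The smallest p belonged to Nfkbie at 3.21 (day 1 minus day 2, log2), Tlr1 at 2.61, Dusp2 at 2.79, Fcer2a at 1.92 and Il12b at 1.27. The saline lungs of day 1 were at the floor for all 5 of these genes, and with a common floor Fcer2a came to 0.08 and Il12b was not tested.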

How the results depend on the processing

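The 251 genes of dust against saline became 0 with WT lungs of day 2 alone, and ran from 117 to 307 when single lungs were left out. The replicate block within extraction day gave 168 higher and 19 lower genes. Same-numbered dust and saline lungs of a day had correlations of -0.168 to -0.091 in 4 pairs. These were of deviations from the means of groups of 2 to 4 lungs, too small to settle whether the numbers pair the lungs. The sex difference ran from 0 to 3 genes and the genotype difference from 0 to 1 over left-out lungs. The day difference of 115 genes became 75 with genes above the floor in every lung, 64 with the replicate block, 22 with groups from the characteristics and 9 without the saturated and high-control lungs, an alternative chosen after seeing the data, and ran from 46 to 142 over left-out lungs. Signs turned with WT lungs of day 2 alone for Ltb (-0.14), Fcer2a (0.00), Ctla4 (-0.22), Havcr2 (-0.02) and Retnla (-0.12, not called in either), and with each lung centred on its median for Lamp3 (-0.09), Nubp1 (-0.07), Itgb7 (-0.03) and Sema4b (-0.13). The change of Rnase2a, not called as reported, turned to 0.38 with day 1 alone, 0.31 with groups from the characteristics and 0.58 without the saturated and high-control lungs, and ran from -1.23 to 0.68 over left-out lungs. Of 4222 values of named genes under the alternatives, 3604 kept direction and side of the threshold, 570 lost the call and 35 gained it; the cause was not tested. Low genes are limited by the floor, which in the shallowest WT lung hides values of up to 64.8.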
